A study of Mus musculus with 12 samples.

Results

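Chromatin accessibility was compared between mouse CD4+ T cells cultured as non-pathogenic Th17 cells (Th17n) and cells cultured as induced regulatory T cells (iTreg), both without drug. Assay for transposase-accessible chromatin by sequencing (ATAC-seq) was used, in which the Tn5 transposase cuts and tags open DNA. The comparison took 6 of the 12 libraries of the series, 3 Th17n and 3 iTreg libraries that had received vehicle. It covered the 43726 of 48443 peaks (open regions) that passed a filter on low counts, and 4717 peaks were not tested. Peaks were taken for their counts alone and not for a change between the groups.

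All cells came from C57BL/6 spleens of animals labelled WT1, WT2 and WT3, and each animal gave 1 library to each group. Naive CD4+ cells (CD44-, CD62L+, CD25-) were sorted and stimulated on plates coated with antibodies to CD3 and CD28 (1 µg/ml of each). Th17n cultures received IL-6 at 25 ng/ml with TGF-beta1 at 2 ng/ml, and iTreg cultures received the same TGF-beta1 without IL-6. Both ran for 68 hours with vehicle, so IL-6 was the only named difference between the media. Live cells were then sorted and frozen, with no sort for a lineage marker named in the labels, so each library is a bulk culture. The other 6 libraries, Th17n and iTreg cells cultured with 100 µM DFMO (difluoromethylornithine, an inhibitor of ornithine decarboxylase), entered the model for its estimate of spread and serve here as a further set of libraries. The labels give neither age nor sex of the animals.

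TGF-beta signals through receptor serine kinases to SMAD proteins and, in activated T cells, can induce Foxp3, the transcription factor of regulatory T cells. IL-6 binds its receptor together with gp130 (Il6st) and activates the kinase JAK1 and the transcription factor STAT3. With TGF-beta it directs cells to the Th17 fate, whose signature cytokines are IL-17A and IL-17F. BATF and other AP-1 factors, with IRF4, are known to open chromatin at Th17 genes.

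Promoter sequences are shown for 4 genes of the Th17 state whose start lay under a peak that was higher in Th17n, and for Tbx21, the Th1 master factor, whose start peak was lower. Each runs from 250 bases before the gene start to 50 after it, 5′ to 3′ on the gene's strand, from the RefSeq promoter table of GRCm38.p6 (mm10). Capitals mark matches, on either strand, to 6 short motifs: AP-1 (TGACTCA), CRE (TGACGTNA), GAS, the STAT-type element (TTCNNNGAA), the ROR half-site (AGGTCA), ETS (CCGGAAGT) and the SP box (GGGGCGGGG). A match describes letters and does not show that a factor binds there. Il17a (chr1:20730655-20730954, plus strand) held 1 CRE match and 1 ROR half-site.
Il17a: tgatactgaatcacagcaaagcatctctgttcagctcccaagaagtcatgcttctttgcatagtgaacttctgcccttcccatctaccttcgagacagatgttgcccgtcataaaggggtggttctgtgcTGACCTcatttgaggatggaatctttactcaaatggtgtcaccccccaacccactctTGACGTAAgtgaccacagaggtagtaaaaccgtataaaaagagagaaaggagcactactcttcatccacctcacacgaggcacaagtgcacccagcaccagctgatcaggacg
Il17f: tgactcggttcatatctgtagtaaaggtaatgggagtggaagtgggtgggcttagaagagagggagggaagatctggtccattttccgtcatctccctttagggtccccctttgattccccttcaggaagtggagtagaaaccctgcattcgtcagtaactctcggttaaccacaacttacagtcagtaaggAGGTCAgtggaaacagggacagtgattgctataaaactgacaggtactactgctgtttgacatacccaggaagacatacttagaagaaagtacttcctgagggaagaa
Il21: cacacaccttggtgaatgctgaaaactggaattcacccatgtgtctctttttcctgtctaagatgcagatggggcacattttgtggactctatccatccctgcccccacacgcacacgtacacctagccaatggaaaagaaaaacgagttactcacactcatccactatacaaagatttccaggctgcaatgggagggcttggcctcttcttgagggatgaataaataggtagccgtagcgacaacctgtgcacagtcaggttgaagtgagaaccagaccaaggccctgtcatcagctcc
Il1r1: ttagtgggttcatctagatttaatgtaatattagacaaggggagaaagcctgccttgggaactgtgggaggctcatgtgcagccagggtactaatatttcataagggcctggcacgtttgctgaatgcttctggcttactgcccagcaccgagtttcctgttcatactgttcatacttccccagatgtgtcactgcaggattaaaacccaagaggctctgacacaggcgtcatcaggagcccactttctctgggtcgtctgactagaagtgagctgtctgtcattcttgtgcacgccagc
Tbx21: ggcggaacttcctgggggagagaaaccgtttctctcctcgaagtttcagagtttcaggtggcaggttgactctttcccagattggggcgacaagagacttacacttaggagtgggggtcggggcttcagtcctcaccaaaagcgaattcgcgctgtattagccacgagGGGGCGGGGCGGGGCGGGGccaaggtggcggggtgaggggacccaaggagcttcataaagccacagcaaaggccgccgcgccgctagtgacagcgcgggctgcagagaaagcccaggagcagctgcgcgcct
Il17f (chr1:20784221-20784520, minus strand) held 1 ROR half-site. Il21 (chr3:37232587-37232886, minus strand) and Il1r1 (chr1:40224830-40225129, plus strand) held none of the 6 motifs in this window. Tbx21 (chr11:97115282-97115581, minus strand) held 3 SP boxes that overlap one another. Of all 32817 promoters in the table, 16.3% held the ROR half-site, 2.93% the CRE and 11.4% the SP box. GC content was 48.3% for Il17a, 46.3% for Il17f, 49.0% for Il21 and 49.3% for Il1r1, against 62.0% for Tbx21.

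Library totals were 1020937, 6496550 and 3405449 counts in Th17n from animals 1, 2 and 3, against 1955327, 4652271 and 4946527 in iTreg. Values are given as CPM, counts per 1000000 of each library's total after scaling by TMM, a factor that centres the bulk of the peaks. The 3 Th17n libraries correlated with each other, and the 3 iTreg libraries likewise, at 0.883 to 0.960 (log2 CPM), whereas a Th17n and an iTreg library correlated at 0.644 to 0.764. No library was a copy of another, since the counts of any 2 libraries of a group differed by at least 2.08 times counting error (chi-square per degree of freedom). The peak set is shared by all libraries, so having a peak does not show that a gene was open in either group. Of the 7 T cell marker genes, 6 had peaks (Cd3d, Cd3e, Cd3g, Cd4, Cd28 and Lck). Their summed CPM in Th17n libraries was 30.9 to 38.7 for Cd3d, 60.4 to 64.6 for Cd3e and 18.9 to 30.0 for Cd3g. In iTreg these were 34.2 to 58.2, 57.1 to 78.2 and 36.2 to 40.9. Cd4 had 46.8 to 63.2 in Th17n and 22.9 to 28.0 in iTreg. Cd28 had 213 to 233 and 105 to 133, and Lck 87.6 to 91.5 and 110 to 118. Of the marker genes of other cell types, 5 of 10 for cytotoxic cells, 5 of 9 for B cells and 11 of 11 for myeloid cells had a peak. The B cell genes Cd79a, Cd79b and Ms4a1 and the cytotoxic genes Gzma and Nkg7 had none, whereas Ebf1, Pax5, Cd8b1, Spi1 and Cebpb were among those with tested peaks.

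Adding IL-6 went with a wide change in accessibility. In edgeR's quasi-likelihood test with Benjamini-Hochberg adjustment, 19483 peaks passed an adjusted p of 0.05, which is 44.6% of those tested. Of these, 11027 were higher in Th17n (25.2%) and 8456 were lower (19.3%). Among called peaks the gains were larger than the losses, with the scaling used throughout. The 2 sets are not on an equal footing, because a weak peak needs a larger change to pass. Higher peaks had a median of 8.68 CPM over the 6 vehicle libraries, and lower peaks 30.7 CPM. The balance of gains and losses also depends on the scaling, as given below. The median log2 change was 1.92 among higher peaks and -0.76 among lower ones, against -0.07 over all tested peaks. At least 4-fold changes numbered 5180 upward and 997 downward, and at least 16-fold changes 449 and 73. Higher peaks were small, with a median width of 440 bp and a median accessibility of 13.8 CPM in Th17n against 3.12 CPM in iTreg. Lower peaks were wide and strong, with a median of 768.5 bp and 22.1 CPM in Th17n against 39.2 CPM in iTreg. Every Th17n library lay above every iTreg library at 27.8% of the tested peaks and below every one at 25.5%. In 10748 of the higher and 8191 of the lower peaks all 3 animals went the same way. In these bulk libraries, a change in the share of cells that are open at a site cannot be told apart from a change within each cell.

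The direction went with where a peak lay. At gene ends, meaning within 1 kb of either end of a protein-coding gene model, 450 of 11731 tested peaks were higher in Th17n and 3807 were lower. Inside gene models the numbers were 6293 higher and 2537 lower of 18297. Outside, within 100 kb of the nearest gene, they were 3517 and 1816 of 11727, and with no gene in that range 767 and 296 of 1971. Strength gave a like picture with TMM over all tested peaks. Of the weakest 10% of peaks by mean CPM 31.0% were higher and 10.7% lower, and of the strongest 10% only 3.73% were higher and 55.2% lower. That trend depended on the scaling. With loess offsets, which remove a trend with peak strength, the weakest 10% had 13.1% higher and 21.4% lower. The strongest 10% then had 10.3% higher and 7.87% lower. Gene-end peaks held 46.0 ± 0.495% of the counts in Th17n libraries and 55 ± 1.19% in iTreg libraries (SD, n = 3 each). Th17n libraries ranged over 45.5 to 46.4% and iTreg libraries over 53.8 to 56.2%, without overlap. The exact two-sided permutation p was 0.1, the smallest that 3 against 3 can give.

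The losses at gene ends depend on how libraries are scaled, because a lower share of counts at gene ends can be expressed as loss there or as gain elsewhere. With TMM computed on gene-end peaks alone, the median change of all peaks moved from -0.07 to 0.24 on the log2 scale. Calls then split into 13715 higher and 3144 lower, so that 81.4% of calls were higher, against 56.6% under the scaling used throughout. Gene ends then had 855 higher and 637 lower peaks, and of the strongest 10% of peaks 8.85% were higher and 9.97% lower. All 11027 higher peaks stayed higher under that scaling, and 3144 of the 8456 lower peaks stayed lower. That scaling moves the changes of all peaks upward, so gains that stayed called under it are no test of those gains. Most losses at gene ends were not called under both scalings. With loess offsets 8642 of the 11027 higher and 5047 of the 8456 lower peaks kept their call. Loess left 557 higher and 1494 lower peaks at gene ends, 5130 and 2852 inside gene models, and 2886 and 2158 outside.

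**Figure D1:**
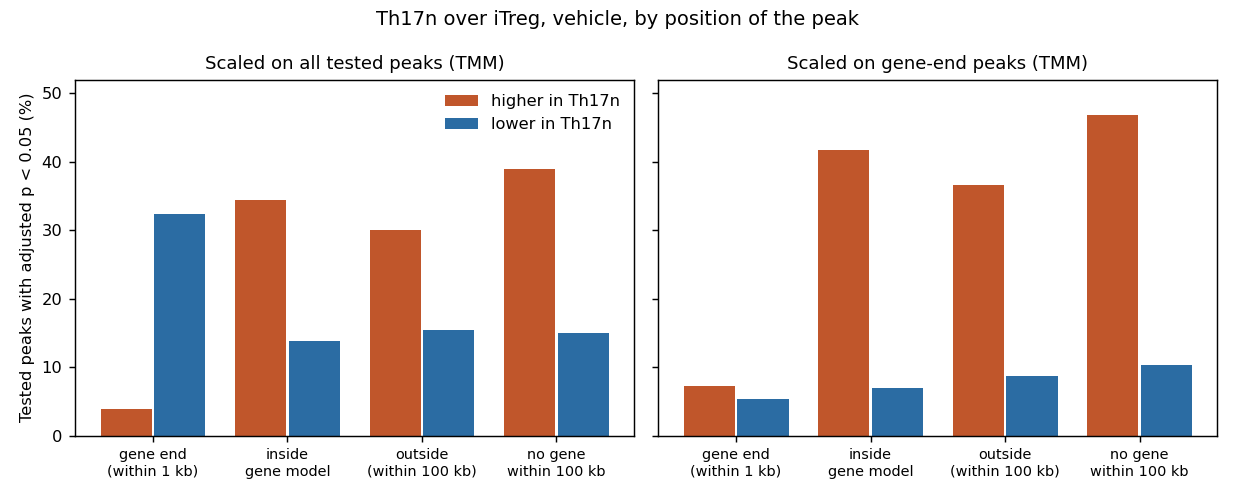
Share of tested peaks (%) that were higher (orange) or lower (blue) in Th17n than in iTreg at an adjusted p under 0.05, by position relative to protein-coding gene models, with libraries scaled on all tested peaks (left) or on gene-end peaks (right). Higher peaks exceed lower ones in the 3 classes away from gene ends in both panels, while at gene ends 3807 lower peaks on the left become 637 on the right.

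The Th17 genes held the clearest gains. Of the 146 tested peaks of the Th17 list (23 genes, 21 with a peak), 77 were higher and 21 lower in Th17n, or 52.7% and 14.4%, against 25.2% and 19.3% of all tested peaks. Their median log2 change was 0.79, against -0.07 over all peaks. With gene-end scaling 82 were higher and 12 lower, against 13715 and 3144 of all 43726 tested peaks. The summed CPM of the list was 3231 to 3542 in the Th17n libraries and 2206 to 2665 in the iTreg libraries, with no overlap.

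At Il17a, which encodes the signature cytokine IL-17A, all 5 tested peaks were higher, and so were all 5 at its neighbour Il17f. The peak over the Il17a start (chr1:20730661-20731781) had 24.5, 24.4 and 18 CPM in the Th17n libraries, against 0, 0.889 and 1.66 CPM in the iTreg libraries. Every Th17n library lay above every iTreg library, and the log2 change was 4.36 ± 0.47 (SE; edgeR adjusted p = 1.4e-10). The Il17f start peak (chr1:20784247-20784613) had 11.3, 14.9 and 17.7 CPM in Th17n and 1.04, 2.22 and 0 CPM in iTreg, a log2 change of 3.76 ± 0.55 (edgeR adjusted p = 2.9e-07). Between them the strongest change was at chr1:20754464-20754764, which lies outside both genes. That region averaged 31.0 ± 1.03 CPM in Th17n and 2.33 ± 0.329 CPM in iTreg (SD, n = 3 each; log2 change 3.67). Along the 54.0 kb from one start peak to the other, 6 of 7 peaks were tested and all 6 were higher, with log2 changes of 0.92 to 4.36. The smallest of these, 0.92, belonged to the peak that was already open in iTreg, at 76.3 CPM in Th17n and 40.8 CPM in iTreg.

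Il21, the gene of a cytokine that IL-6 induces through STAT3, had 7 of 11 tested peaks higher and none lower. Its peak with the smallest p lay 941 bp from the start (chr3:37231027-37231695). It had 53.8, 55 and 57.2 CPM in Th17n and 1.04, 1.33 and 4.99 CPM in iTreg, with a log2 change of 4.30 ± 0.32 (edgeR adjusted p = 2.9e-15). The start peak had 16.0, 10.1 and 12 CPM in Th17n and 1.55, 0.667 and 0.831 CPM in iTreg. Il1r1, the IL-1 receptor gene, had a start peak at 9.44, 16.8 and 25.8 CPM in Th17n and 0, 2.89 and 1.25 CPM in iTreg. That was a log2 change of 3.45 ± 0.50 (edgeR adjusted p = 2.5e-07), with a wide spread among the Th17n libraries but no overlap between the groups.

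The transcription factors of the Th17 state changed less evenly. Rora, a nuclear receptor gene active in Th17 cells, had 14 peaks higher and 3 lower of 32. They reached from a log2 change of 4.81 at 39.4 CPM in Th17n against 1.33 CPM in iTreg to -2.55 at 5.24 CPM in Th17n against 33.1 CPM in iTreg. Maf, a factor that drives IL-10 and IL-21, had 5 of 7 higher and none lower, and Ahr, the aryl hydrocarbon receptor, had 5 higher and 2 lower of 9. Hif1a, the hypoxia factor, had 8 higher and 1 lower of 10. Batf and Irf4, factors that act early in Th17 cells, had 2 higher and 3 lower of 8, and 4 higher and 1 lower of 9. With gene-end scaling Batf had 3 higher and 1 lower.

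Receptors and effectors of the list were mixed. Il23r, whose product makes Th17 cells responsive to IL-23, had 3 higher and 1 lower of 5. Its leading peak averaged 25.4 ± 5.67 CPM in Th17n and 6.15 ± 3.12 CPM in iTreg (SD, n = 3 each), and its start peak had too few counts to test. Ccr6, a chemokine receptor of Th17 cells, had 3 higher and 3 lower of 6. The single tested peak of Il22 did not pass (log2 change 0.44 ± 0.45).

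**Figure D2:**
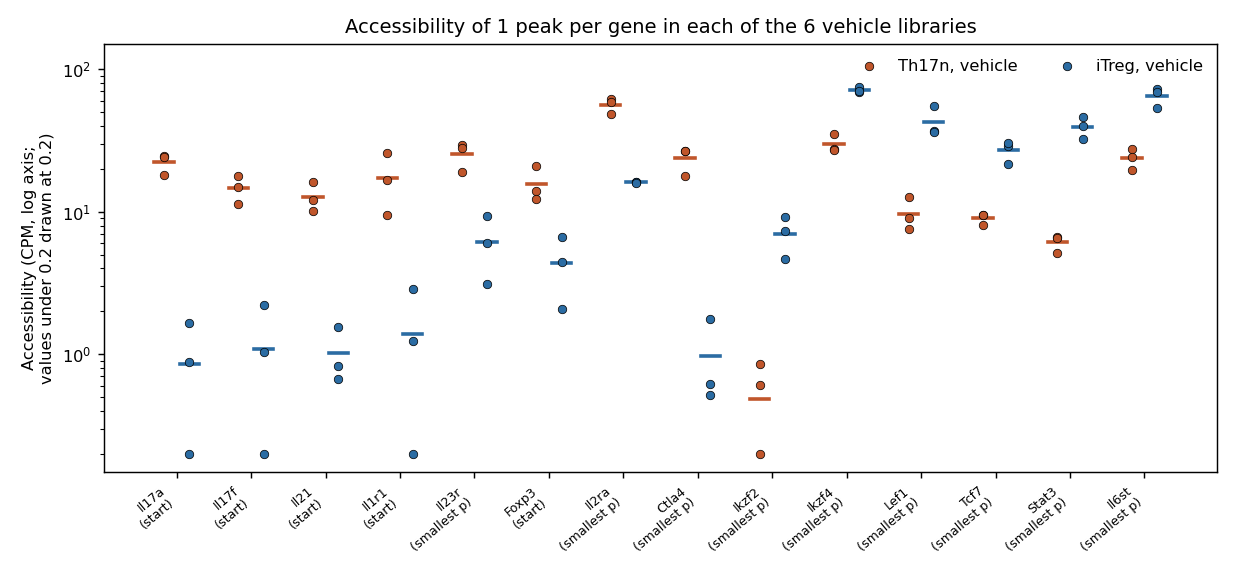
Accessibility (CPM, log axis) of 1 peak per gene in each vehicle library, Th17n in orange and iTreg in blue, with bars for the means of 3 libraries; the peak is the one nearest the gene start or the one with the smallest p of that gene, as marked, and values under 0.2 are drawn at 0.2. Il17a, Il17f, Il21, Il1r1, Il23r, Foxp3, Il2ra and Ctla4 show higher Th17n values, and Ikzf2, Ikzf4, Lef1, Tcf7, Stat3 and Il6st show lower ones.

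Regulatory T cell genes did not mirror this. Of the 168 tested peaks of the Treg list (24 genes), 36 were higher in Th17n and 45 lower, or 21.4% and 26.8%, against 25.2% and 19.3% of all tested peaks. The median log2 change was -0.05. With gene-end scaling the list had 51 higher and 29 lower and a median of 0.27. All 43726 tested peaks then had 13715 higher and 3144 lower and a median of 0.24, so lower calls remained more frequent in the list than over all peaks. Foxp3 itself had a single peak in the table, inside the gene and 12.7 kb from its start (chrX:7593219-7593658). It had 20.8, 14.0 and 12.3 CPM in Th17n and 2.07, 4.44 and 6.65 CPM in iTreg. It was therefore higher in Th17n, by 1.65 ± 0.39 on the log2 scale (edgeR adjusted p = 0.00049), with no overlap. No peak of the table lay at the Foxp3 start, so the defining gene of the iTreg label gave no mark of that identity in these libraries.

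Other Treg genes went both ways. Of the 78 tested peaks of 9 Treg marker genes within the list, 16 were higher and 23 lower, against 25.2% and 19.3% of all tested peaks. That lean to lower calls depended on the scaling. With gene-end scaling the higher and lower counts were 7 and 3 for Ctla4, 7 and 6 for Nrp1 and 3 and 2 for Il2ra. They were 1 and 0 for Foxp3, 2 and 0 for Itgae and 2 and 2 for Ikzf2. Ikzf4 had 1 and 1, Tnfrsf18 0 and 1 and Lrrc32 1 and 2. For 8 Th17 marker genes, with the scaling used throughout, 28 peaks were higher and 5 lower of 43. Il2ra, the gene of the high-affinity IL-2 receptor chain CD25, had 2 peaks higher and 4 lower of 15, and 3 higher and 2 lower with gene-end scaling. Its leading peak, at the downstream gene end, averaged 56.0 ± 6.95 CPM in Th17n and 16.1 ± 0.113 CPM in iTreg (SD, n = 3 each; log2 change 1.82). A pair of peaks 12.6 and 6.19 kb upstream of the start went the other way, at 3.19 CPM in Th17n against 14.6 in iTreg and 6.14 CPM in Th17n against 28.7 in iTreg. The Il2ra start peak did not pass, and its log2 change of -0.02 became 0.29 with gene-end scaling.

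Ctla4, an inhibitory receptor gene, had 4 higher and 3 lower of 16. The largest change lay 14.6 kb outside the gene, at 17.9, 26.7 and 26.6 CPM in Th17n and 0.518, 1.78 and 0.623 CPM in iTreg (log2 change 4.48 ± 0.42, edgeR adjusted p = 3.3e-12). Entpd1 and Nt5e encode CD39 and CD73, which together convert extracellular ATP to adenosine. Entpd1 had 3 higher and none lower of 9, led by a peak at 58.9 ± 6.76 CPM in Th17n and 12.3 ± 2.98 CPM in iTreg (SD, n = 3 each). Nt5e had 3 higher and 2 lower of 7. Itgae, the gene of the integrin chain CD103, had 2 higher and none lower of 6.

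The Ikaros family genes Ikzf2 and Ikzf4 encode Helios and Eos. Ikzf2 had 1 higher and 4 lower of 7, and 2 higher and 2 lower with gene-end scaling. A region 4.93 kb outside Ikzf2 had 0, 0.609 and 0.858 CPM in Th17n and 4.66, 9.11 and 7.27 CPM in iTreg (log2 change -3.45 ± 0.63, edgeR adjusted p = 1.5e-05). In Ikzf4 an intragenic peak had 34.9, 27.4 and 26.9 CPM in Th17n and 74.6, 69.5 and 70.7 CPM in iTreg (log2 change -1.32 ± 0.16, edgeR adjusted p = 7.5e-09). Nrp1, a surface marker of Treg cells, had 4 higher and 8 lower of 20, and 7 higher and 6 lower with gene-end scaling. Further list genes leaned lower: Gzmb had 1 higher and 5 lower of 6, Cd83 1 and 4 of 10, and Lrrc32 1 and 2 of 7. With gene-end scaling Gzmb had 1 higher and 1 lower, Cd83 2 and 3, and Lrrc32 1 and 2. Tnfrsf9 and Izumo1r leaned the other way, each with 2 higher and 1 lower, of 7 and 9.

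The IL-6 and STAT3 pathway, the one that the added cytokine feeds, had 24 peaks higher and 30 lower of 122 tested. These are 19.7% and 24.6%, against 25.2% and 19.3% of all tested peaks. With gene-end scaling the list had 37 higher and 14 lower, against 13715 and 3144 of all 43726 tested peaks. The list's median log2 change was -0.10, and 0.21 with gene-end scaling, against -0.07 and 0.24 over all tested peaks. At Stat3 the start peak (chr11:100938918-100940213) had 171, 149 and 153 CPM in Th17n and 157, 170 and 173 CPM in iTreg. The groups overlapped and the log2 change of -0.09 ± 0.11 did not pass (edgeR adjusted p = 0.49). It turned to 0.22 with gene-end scaling and to 0.33 with loess offsets, which remove a trend with peak strength, and passed with the latter (adjusted p = 0.0093). A second peak inside Stat3, 7.53 kb from the start (chr11:100931421-100932009), had 6.61, 6.55 and 5.15 CPM in Th17n and 46.1, 32.4 and 40.1 CPM in iTreg. It was lower in every Th17n library, by a log2 change of -2.68 ± 0.26 (edgeR adjusted p = 1.6e-11).

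The receptor genes had calls in both directions. Il6st, the gp130 gene, had 3 higher and 2 lower of 8. Its leading peak, 38.4 kb outside the gene, had 27.4, 19.5 and 24.0 CPM in Th17n and 53.4, 72.4 and 69.2 CPM in iTreg (log2 change -1.54 ± 0.19, edgeR adjusted p = 5.1e-09). Il6ra, the IL-6 receptor gene, had 1 higher and 4 lower of 12, and 3 higher and 2 lower with gene-end scaling. Jak1 had 6 higher and 3 lower of 19, led by a region 11.2 kb outside it at 36.8, 50.4 and 49.5 CPM in Th17n and 0.518, 6.44 and 7.07 CPM in iTreg (log2 change 3.09 ± 0.30). Among feedback inhibitors, Socs3, the main brake on gp130 signalling, had 6 tested peaks and none that passed, but 1 was higher with gene-end scaling. Socs1 had 3 lower and none higher of 4, and Cish 3 lower and none higher of 5, but with gene-end scaling Socs1 had no call and Cish had 1 higher and 1 lower.

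The TGF-beta pathway, whose ligand both cultures received, had 48 peaks higher and 28 lower of 156 (30.8% and 17.9%). All tested peaks had 25.2% and 19.3%. The list's median was 0.04 and, under gene-end scaling, 0.36, against -0.07 and 0.24 over all tested peaks. Of the 156 peaks, 25 lay at gene ends, against 26.8% of all tested peaks. Peaks away from gene ends were more often higher, and the part of position was not tested. Smad3, which carries the receptor's signal, had 8 higher and 2 lower of 17. Its leading intragenic peak (chr9:63703376-63703775) had 40.6, 50.6 and 43.8 CPM in Th17n and 4.14, 2.22 and 2.08 CPM in iTreg, a log2 change of 4.14 ± 0.33 (edgeR adjusted p = 2.2e-14). Tgfbr3, the co-receptor betaglycan, had 7 higher and none lower of 17, Smad2 4 and none of 6, and Tgfbi, a gene that TGF-beta induces, 3 of 3.

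Tgfbr2, the gene of the ligand-binding receptor, had 6 higher and 6 lower of 21. At its downstream end a peak (chr9:116087258-116087593) had 42.5, 26.8 and 30.0 CPM in Th17n and 1.04, 3.78 and 3.32 CPM in iTreg (log2 change 3.39 ± 0.36, edgeR adjusted p = 1.1e-10). The Tgfbr2 start peak was slightly lower, by -0.37 ± 0.13 (edgeR adjusted p = 0.019). That call was lost with gene-end scaling, where the change was -0.06, with every other scaling, with DESeq2 and with 4 of the 6 single libraries left out. The inhibitory gene Smad7 had 2 higher and 3 lower of 8, and 2 higher and 1 lower with gene-end scaling.

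Of the 94 tested peaks of the IL-2 and STAT5 pathway, 32 were higher and 12 lower (34.0% and 12.8%). The shares over all tested peaks were 25.2% and 19.3%. The list's median was 0.13, against -0.07 over all peaks. At gene ends lay 13 of the 94, against 26.8% of all tested peaks. Il4ra, which encodes the IL-4 receptor chain, had 7 higher and none lower of 11. Its leading peak, at a gene end, had 112, 103 and 132 CPM in Th17n and 22.8, 19.8 and 22.9 CPM in iTreg (log2 change 2.42 ± 0.17, edgeR adjusted p = 1.4e-15). Bcl2, the survival gene, had 9 higher and 4 lower of 24, and Stat5b 4 higher and none lower of 11. Il2 had 3 higher and 1 lower of 7.

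Genes of the other helper lineages were split. Over all tested peaks 25.2% were higher and 19.3% lower, with a median of -0.07, and 0.24 with gene-end scaling. The Th1 list had 13 peaks higher and 20 lower of 75 (17.3% and 26.7%; median -0.08, and 0.24 with gene-end scaling). A region 14.2 kb outside Ifng, the interferon-γ gene, had 0, 0.305 and 1.72 CPM in Th17n and 7.77, 8.89 and 13.5 CPM in iTreg (log2 change -3.71 ± 0.62, edgeR adjusted p = 3.2e-06). Within Stat4, which transmits IL-12 signals, a peak had 0.944, 0.609 and 0.858 CPM in Th17n and 20.2, 16.4 and 17.5 CPM in iTreg (log2 change -4.54 ± 0.51, edgeR adjusted p = 5.3e-10). The IL-18 receptor gene Il18r1 had 1 higher and 4 lower of 5 under both scalings, and the IL-12 receptor gene Il12rb2 went the other way with 6 higher and 2 lower of 9. The Tbx21 start peak, printed above, had 13.2, 16.6 and 12.6 CPM in Th17n and 22.8, 25.1 and 21.4 CPM in iTreg. Its log2 change of -0.67 ± 0.27 passed narrowly (edgeR adjusted p = 0.038), and the call was lost with gene-end, RLE and total scaling, with DESeq2 and with 4 of the 6 single libraries left out.

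The Th2 list had 9 higher and 12 lower of 37 (24.3% and 32.4%), against 25.2% and 19.3% of all tested peaks. Its median was -0.37, and -0.05 with gene-end scaling, against -0.07 and 0.24 over all tested peaks. Gata3, the Th2 master factor, had 1 higher and 4 lower of 8, and Ccr8 2 lower of 3. With gene-end scaling Gata3 had 1 higher and 2 lower, and Ccr8 had 1 lower. Nfil3 had 4 higher and 1 lower of 6. The follicular helper (Tfh) list had 23 higher and 12 lower of 77 (29.9% and 15.6%; median 0.09). Icos, a costimulatory receptor gene, had 4 higher and 4 lower of 14, and Cd200 had 4 higher and 1 lower of 8. Bcl6, the Tfh master factor, had 1 higher and none lower of 6.

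Genes of naive and memory T cells were split by gene, and their shares were near those of all tested peaks (25.2% higher and 19.3% lower). The list had 72 peaks higher and 47 lower of 251 (28.7% and 18.7%; median 0.08). Satb1, a genome organiser of T cells, had 13 higher and 1 lower of 18, and Bach2, a repressor of effector genes, had 21 higher and 8 lower of 50. Cd28, the main costimulatory receptor, had 7 of 15 higher and none lower. In contrast, Lef1 and Tcf7, partner factors of naive T cells, had 3 higher and 6 lower of 24, and 1 higher and 4 lower of 13. With gene-end scaling Lef1 had 8 higher and 4 lower. With gene-end scaling these became 8 higher and 4 lower, and 3 higher and 4 lower. The leading Lef1 peak had 7.55, 8.99 and 12.6 CPM in Th17n and 55.4, 36.9 and 36.4 CPM in iTreg (log2 change -2.06 ± 0.25, edgeR adjusted p = 4.5e-09). The leading Tcf7 peak had 9.44, 8.07 and 9.44 CPM in Th17n and 29.0, 21.8 and 30.1 CPM in iTreg. Id2 and Id3, inhibitors of E proteins, went opposite ways in their counts: Id2 had 4 higher and 1 lower of 10, and Id3 had 1 higher and 5 lower of 8 (1 and 1 with gene-end scaling).

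Activation genes also divided. All tested peaks had 25.2% higher and 19.3% lower, with a median of -0.07, and 0.24 with gene-end scaling. The list of activation and AP-1 genes had 48 peaks higher and 54 lower of 204 (23.5% and 26.5%; median -0.12, and 0.20 with gene-end scaling). Fosl2, an AP-1 subunit, had 6 of 8 higher and none lower, Nfatc2 6 of 18 and none, and Runx1 9 higher and 4 lower of 22. Of the immediate early genes, the Nr4a genes, Egr1 and Egr3 had only lower calls, most of which were lost with gene-end scaling, whereas Egr2 had 3 higher and 2 lower of 12. Nr4a1 had 3 lower of 5, Nr4a2 2 lower of 4, Nr4a3 3 lower of 9, Egr1 3 lower of 4 and Egr3 2 lower of 3, each with none higher. With gene-end scaling Nr4a1 and Nr4a3 kept 1 lower call each, Egr1 kept 2, Nr4a2 had none and Egr3 had 1 higher. Cd69, the early activation marker, had 7 of 11 lower and none higher, the furthest at a log2 change of -1.52, and 1 lower with gene-end scaling. Nfkb1 had 9 higher and 5 lower of 25.

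The remaining lists had calls in both directions. Of all 43726 tested peaks 25.2% were higher and 19.3% lower, and with gene-end scaling 13715 were higher and 3144 lower. Homing and adhesion genes were near those shares, with 27 higher and 22 lower of 113 (23.9% and 19.5%, and 38 and 8 peaks with gene-end scaling). Checkpoint receptors had 30 and 21 of 107 (28.0% and 19.6%, and 39 and 12 peaks). Glycolysis and hypoxia genes had 20 and 19 of 81 (24.7% and 23.5%, and 28 and 5 peaks with gene-end scaling). Among them Egln3, an oxygen-sensing hydroxylase gene, had 6 higher and none lower of 13. Polyamine genes had 15 higher and 11 lower of 44 (34.1% and 25%, and 15 and 2 peaks with gene-end scaling). Odc1, the gene of the enzyme that DFMO inhibits, had 3 higher and 2 lower of 9, and a region 1.98 kb outside it had 25.5, 27.1 and 27.2 CPM in Th17n and 0, 0.889 and 2.91 CPM in iTreg (log2 change 4.07 ± 0.41, edgeR adjusted p = 2.9e-11). Housekeeping genes had 5 higher and 11 lower of 43 (11.6% and 25.6%), with a median of -0.15. With gene-end scaling they had 8 higher and 4 lower and a median of 0.16. Markers of cytotoxic, B and myeloid cells had 12, 23 and 24 tested peaks, of which 4, 10 and 4 were higher and 4, 5 and 5 lower. With gene-end scaling 5, 11 and 7 were higher and 3, 3 and 1 lower. The B cell count rests on Ebf1, with 9 of its 16 peaks higher. Summed CPM of the lists was 139 to 152 in Th17n and 134 to 159.5 in iTreg for cytotoxic genes, 243 to 272 in Th17n and 153 to 219 in iTreg for B cell genes, and 425 to 464 in Th17n and 452 to 469 in iTreg for myeloid genes. The part of other cell types in the results was not tested.

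**Figure D3:**
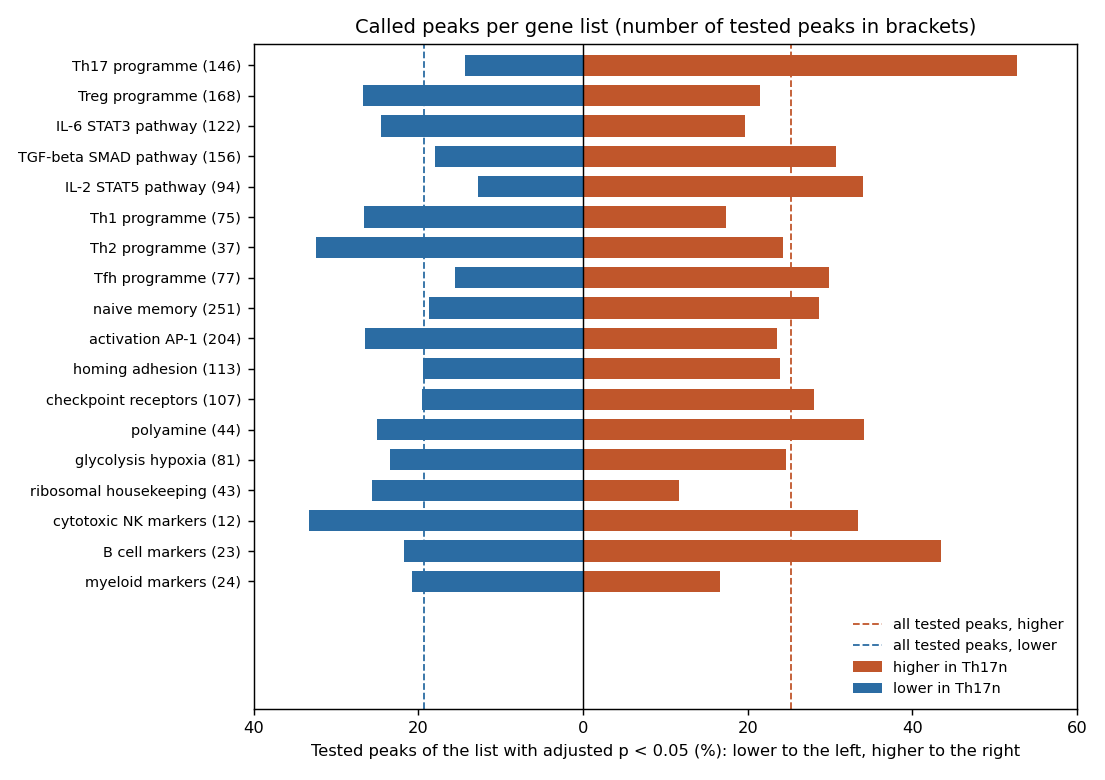
Share of each gene list's tested peaks (%) that were higher (orange, to the right) or lower (blue, to the left) in Th17n than in iTreg at an adjusted p under 0.05, with dashed lines for all tested peaks (25.2% and 19.3%). The Th17 list reaches 52.7% higher, while the IL-6 and STAT3 list has 19.7% higher and 24.6% lower.

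The peaks of smallest adjusted p lay mostly at loci outside the lists. The smallest adjusted p belonged to a peak inside Frmd6 (chr12:70890603-70891791), a FERM-domain gene. It had 98.1, 117 and 101 CPM in Th17n and 2.59, 3.33 and 5.20 CPM in iTreg (log2 change 4.73 ± 0.23, edgeR adjusted p = 5.5e-21). A peak near Vstm5 had 67.0, 78.7 and 96.4 CPM in Th17n and 2.59, 0.889 and 2.91 CPM in iTreg. Others of the first 10 had Cdc73, Stard13, Tmtc4, Arid1b, Epg5, Lyst or Map3k13 as the closest gene, with log2 changes of 3.72 to 5.46. The Cdc73 peak lay 65.9 kb outside that gene. The largest changes among peaks of at least 10 CPM on average were inside or near Plcb1 (6.85), Rnf152 (6.29), Papss1 (6.29), Thada (6.18) and Mamdc2 (6.06). At Plcb1, a phospholipase C gene, the Th17n libraries had 35.9, 19.2 and 24.3 CPM and the iTreg libraries 0, 0 and 0.416 CPM.

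Among the losses, a region 3.41 kb outside Papolg, a poly(A) polymerase gene, had 11.3, 20.4 and 12 CPM in Th17n and 101, 96.6 and 104 CPM in iTreg (log2 change -2.65 ± 0.19, edgeR adjusted p = 8.9e-16). The peak inside Ppfibp2 had 0, 2.89 and 3.43 CPM in Th17n and 40.4, 48.7 and 44.9 CPM in iTreg (log2 change -4.02 ± 0.32). The other 8 had Mxd1, Emsy, Colq, Hbs1l, Agr3, Tap2, Fubp3 and Selplg as the closest genes, with the Emsy peak 23.7 kb and the Agr3 peak 28.1 kb outside. Selplg encodes the selectin ligand PSGL-1, and its gene-end peak had 13.2, 15.5 and 12 CPM in Th17n and 69.4, 64.7 and 58.6 CPM in iTreg. The largest loss was inside Myo1e, at 0, 0.609 and 0 CPM in Th17n and 21.8, 15.1 and 23.3 CPM in iTreg (log2 change -5.67 ± 0.56).

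Change was spread over many genes. Of 14141 genes with a tested peak, 8741 had at least 1 that passed. Among the 2097 genes with 3 or more called peaks, 439 had only higher ones, 119 only lower ones and 1539 had both. Bach2 had the most called peaks, 29 of 50, followed by Foxp1 and Maml2 with 21 each. Sox5, a transcription factor gene linked to Th17 cells in mice, had 18 called peaks of 27, and all 18 were higher, up to a log2 change of 4.69. Genes with many peaks are mostly long, and Sox5 spans 953863 bp, so these numbers do not compare genes on an equal footing.

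Promoters that were higher in Th17n differed in letters from the rest. A promoter lay whole under a tested peak in 7072 cases (1 promoter a peak), of which 104 were under higher, 2913 under lower and 4055 under peaks that did not pass. The AP-1 motif TGACTCA was present in 38 of the 104 (36.5%), in 2.30% of the promoters under lower peaks, in 3.72% of those that did not pass and in 5.20% of all promoters. Read the other way, 14.8% of 256 promoters with the motif were under higher peaks, against 0.968% of 6816 without it. With gene-end scaling, 72 of 326 promoters under higher peaks held it (22.1%), against 1.63% under lower peaks. The looser form TGANTCA, which includes it, gave 43.3%, 3.30% and 4.86% for higher, lower and not passed.

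Base composition moved with the same split. Median GC content was 52.7% in promoters under higher peaks, 63.7% under lower peaks and 64.0% under peaks that did not pass, and 52.7% over all promoters. Within promoters of 45 to 55% GC, AP-1 was present in 24 of 48 under higher peaks, in 5.85% under lower peaks and in 6.22% of those that did not pass. The share under higher peaks was smaller in the other GC ranges. It was 4 of 15 under 45% GC, 6 of 21 at 55 to 65% and 4 of 20 at 65% and over. Of those that did not pass, 14.7%, 3.91% and 2.38% held the motif in these ranges. The GAS motif showed no such split, at 6.73%, 6.04% and 6.26%. The SP box, rich in GC, was found in 5.77%, 26.7% and 26.3%, and the ROR half-site in 17.3%, 8.75% and 10.8%. These shares are descriptions and were not tested, and other regulatory regions could not be searched because their sequence was not used here.

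The 3 protein-coding promoters with the largest gain among those with TGACTCA, chosen after their values were seen, belonged to Itgax, Bpifc and Pacsin2, and the motif stands in capitals.
Itgax: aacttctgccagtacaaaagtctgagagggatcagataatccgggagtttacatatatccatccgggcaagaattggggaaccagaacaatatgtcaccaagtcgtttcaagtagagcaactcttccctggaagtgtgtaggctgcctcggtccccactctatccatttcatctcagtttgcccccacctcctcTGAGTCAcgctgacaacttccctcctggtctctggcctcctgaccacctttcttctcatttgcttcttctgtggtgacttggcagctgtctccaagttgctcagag
Bpifc: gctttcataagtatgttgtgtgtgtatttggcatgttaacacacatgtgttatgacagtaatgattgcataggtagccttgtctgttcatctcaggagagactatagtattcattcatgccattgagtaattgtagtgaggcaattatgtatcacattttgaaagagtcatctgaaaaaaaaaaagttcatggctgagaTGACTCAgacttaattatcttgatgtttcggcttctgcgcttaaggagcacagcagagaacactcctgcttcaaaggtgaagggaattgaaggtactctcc
Pacsin2: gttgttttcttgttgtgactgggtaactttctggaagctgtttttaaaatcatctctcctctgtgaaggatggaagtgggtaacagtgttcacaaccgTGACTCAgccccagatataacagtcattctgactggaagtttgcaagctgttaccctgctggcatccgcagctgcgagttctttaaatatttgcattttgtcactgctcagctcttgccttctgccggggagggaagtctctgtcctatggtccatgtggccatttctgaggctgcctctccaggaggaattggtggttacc
Itgax, the gene of the integrin chain CD11c (chr7:128129300-128129599, plus strand), had 19.8, 10.5 and 13.4 CPM in Th17n and 2.07, 1.78 and 1.87 CPM in iTreg, a log2 change of 2.85 ± 0.45 (edgeR adjusted p = 1.1e-06). Bpifc (chr10:86011811-86012110, minus strand) had 46.2, 55 and 57.8 CPM in Th17n and 6.22, 4.22 and 11.4 CPM in iTreg (2.83 ± 0.27). Pacsin2, which encodes a membrane-shaping protein (chr15:83447831-83448130, minus strand), had 6.61, 9.29 and 4.58 CPM in Th17n and 2.07, 1.33 and 1.25 CPM in iTreg (2.23 ± 0.58).

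**Figure D4:**
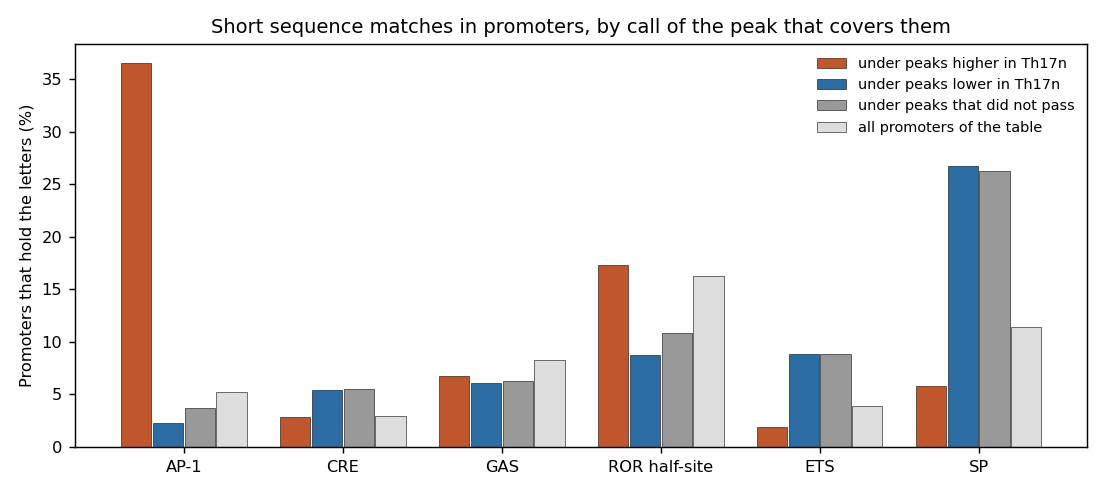
Share of promoters (%) that hold each of 6 motifs on either strand, for promoters whole under peaks higher in Th17n (orange, 104), lower in Th17n (blue, 2913) or not passed (dark grey, 4055), and for all 32817 promoters (light grey). AP-1 stands at 36.5% under higher peaks against 2.30% under lower ones, while GAS is at 6 to 7% in each of the 3 classes.

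Peaks that overlap genes of small RNAs were mostly lower or not passed. Of all tested peaks 25.2% were higher and 19.3% lower, and of the strongest 10% by mean CPM 3.73% were higher and 55.2% lower. With gene-end scaling the strongest 10% had 8.85% higher and 9.97% lower. Of 145 peaks over tRNA genes 1 was higher and 88 lower in Th17n, with a median log2 change of -0.56. For snRNA genes the counts were 3 and 28 of 35, for snoRNA genes 4 and 14 of 33, and for miRNA genes 5 and 28 of 94. With gene-end scaling 3 were higher and 30 lower for tRNA genes (median -0.25), 3 and 8 for snRNA, 4 and 2 for snoRNA and 8 and 7 for miRNA genes, so the direction of the last 2 classes depends on the scaling.

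The DFMO libraries of the same 3 animals allow the same contrast in separate cultures. They share the animals, the estimate of spread and the scaling method with the vehicle contrast, so they are not independent of it. Gene-end peaks held 47.2 to 48.9% of counts in Th17n with DFMO and 55.3 to 57.0% in iTreg with DFMO. A like shift was thus present there, and the share of equal signs over all tested peaks is not given here. Of the 11027 peaks higher with vehicle, 10604 (96.2%) had the same sign with DFMO and 7654 passed there, which is 69.4% of the vehicle list and 77.7% of the 9857 peaks higher with DFMO. Of the 8456 lower peaks, 7641 (90.4%) had the same sign and 3913 passed, 46.3% of the vehicle list and 60.9% of the 6423 lower with DFMO. Median log2 changes were larger in size with vehicle, on which the lists were chosen, at 1.92 with vehicle against 1.63 with DFMO for the higher peaks and -0.76 with vehicle against -0.47 with DFMO for the lower ones. The difference between the contrasts passed at 574 peaks (1.31% of those tested), 209 more positive with vehicle (0.478%) and 365 more negative (0.835%). At the Il17a start the log2 change was 4.36 with vehicle and 1.58 with DFMO, a difference of 2.78 (edgeR adjusted p = 0.033). At Foxp3 it was 1.65 with vehicle and 0.12 with DFMO, and the difference of 1.54 did not pass (edgeR adjusted p = 0.21).

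**Figure D5:**
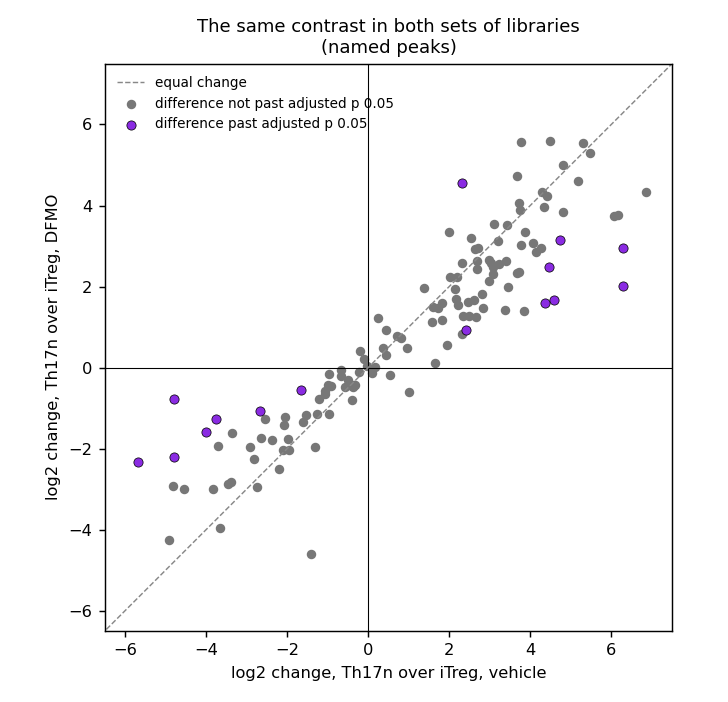
Log2 change of Th17n over iTreg with vehicle (horizontal) and with DFMO (vertical) at the named peaks, with purple points where the difference passed an adjusted p of 0.05 and a dashed line for equal change. Nearly all points keep their sign, and 15 are purple, which include the Il17a start at 4.36 with vehicle and 1.58 with DFMO.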

How the data were processed

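The deposited table gives unscaled whole-number counts of the authors, for every peak in every library. Per the submitters' processing notes, Trimmomatic, FastQC, Bowtie2, MACS2 and the build mm10 were used; the notes name no versions or settings, nor how peaks were merged. Peak starts are printed as deposited, without knowledge of whether they count from 0 or 1.

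The test was edgeR's quasi-likelihood F test (edgeR 4.0.16, R 4.3.3), with TMM scaling and a trended dispersion, on peaks that filterByExpr kept at a minimum count of 10 within groups. The model had the 4 group means of all 12 libraries and no block. The contrast was Th17n minus iTreg with vehicle, with Benjamini-Hochberg adjustment over 43726 peaks and a threshold of 0.05. The same contrast with DFMO, and the difference of both, came from the same model. For each peak the closest protein-coding gene of GRCm38.p6 (mm10) within 100 kb was taken, found for 46093 peaks, which does not show which gene the peak controls. A gene's start is that of the RefSeq promoter table. All 12 count columns matched a library. Total counts ran from 1020937 to 6496550 in the vehicle libraries, so peaks of few counts are least precise in Th17n from animal 1. The test was checked on simulated data in which 200 peaks were changed and the groups otherwise had the same profile. That check cannot speak to the choice of scaling.

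Libraries of the same animal are paired by the labels. After removal of group means, 18 same-animal pairs correlated at -0.055 to 0.075, and the 3 pairs of vehicle libraries at 0.021 to 0.037. With the animal as a block, the calls were 10916 higher and 8375 lower, and among the named peaks the block ended those at the Ccr6 start and at Cd22.

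The gene lists and the comparison were chosen with earlier results of these data known. Named were the 10 peaks of smallest adjusted p in each direction that moved the same way in all 3 animals; up to 4 genes per list; the start peak and the peak with the smallest p of 30 genes; the 10 genes with the most called peaks; and the 5 largest changes each way at a mean of at least 10 CPM. Where a gene is described by counts, its leading peak is the one with the smallest p. Other list genes are given by counts of calls only. Alternatives were other scalings (RLE, library totals, gene-end TMM, loess), other filters, DESeq2 1.42.0, 6 libraries only, a block, thinning, and leaving out each library. Some named items are not reported here.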

Additional observations from a re-analysis of the deposited data

Results flagged for a closer look

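At 15 named peaks the Th17n over iTreg change differed between vehicle and DFMO libraries at an adjusted p under 0.05 (edgeR, interaction of lineage and drug). The peaks were chosen for their values with vehicle, so a smaller change with DFMO is partly built into the choice. The difference, vehicle minus DFMO on the log2 scale, was 2.78 at the Il17a start, 3.34 near Rnf152, 2.91 near Id2, 1.59 inside Frmd6, 4.28 inside Papss1, 1.98 inside Stard13 and 1.49 at Il4ra, where Th17n was higher in both. It was -2.25 near Itgal, the integrin gene, where the gain was larger with DFMO. Where Th17n was lower it was -4.01 near Gm5134, -1.61 inside Stat3, -1.11 near Ywhaz, -2.59 near Nectin3, -2.49 near Vegfa, -2.41 inside Ppfibp2 and -3.33 inside Myo1e, each with a larger loss with vehicle. No cause was tested.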

How the results depend on the processing

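Under 17 alternatives of the test, no peak called with all libraries changed direction and stayed called, except that 2 lower peaks became higher with loess offsets. Against 11027 higher and 8456 lower peaks, gene-end TMM gave 13715 and 3144, RLE 11454 and 7049, library totals 11559 and 6813, loess 9178 and 6878, and DESeq2 10822 and 6453. A minimum count of 30 gave 6954 and 5435 of 28237 tested, and thinning every library to 1020937 counts gave 6554 and 3972 of 31091, both with fewer peaks tested. Leaving out 1 library gave 9688 to 11345 higher and 5306 to 7959 lower, and the lowest count of 5306 came without Th17n from animal 3; the cause was not tested. The replicate block gave 10916 and 8375 with 12 libraries and 11255 and 8499 with 6. With genes taken within 10 kb, the Th17 list had 54 higher and 15 lower peaks of 104.

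Start peaks with small changes turned sign. Il2ra turned to 0.035 with RLE, 0.049 with totals, 0.29 with gene-end TMM, 0.28 with loess, 0.062 with a minimum count of 30, 0.026 with DESeq2, 0.00084 with the replicate block and -0.13 to 0.10 with single libraries left out. Stat3 turned to 0.22, 0.33 and 0.013 with gene-end TMM, loess and thinning, Socs3 to 0.085 and 0.20 with gene-end TMM and loess, and Smad3 to 0.12 and 0.051 with these, and lay between -0.39 and 0.0061 with single libraries left out. Ahr ranged over -0.028 to 0.30 with single libraries left out, turning to -0.0049 without Th17n from animal 2. In addition, Il6ra turned to -0.00076 with thinning, and Tgfbr1 to 0.023 with loess. An exact permutation test of 3 against 3 libraries cannot give a two-sided p under 0.1, and depth limits calls at peaks of few counts.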
